A study of Mus musculus with 22 samples.

Results

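The inhibitory and costimulatory receptors of T cells were examined in mouse TH2 cells, T helper cells polarised toward the type 2 cytokine programme, after exposure to calcitriol, the form of vitamin D that activates its receptor. The group is a named set of 10 genes, Ctla4, Icos, Cd28, Pdcd1, Btla, Cd160, Lag3, Tigit, Havcr2 and Cd200, found by gene symbol among the 49671 genes of the count table. Each symbol matched 1 Ensembl gene. Wild-type Balb/c mice of both sexes, 6 to 8 weeks old, came from breeding on diets with 400, 1000 or 4000 IU of vitamin D3 per kg, and RNA was taken on day 5 of polarisation. The calcitriol group held 11 libraries of cells given 100 nM calcitriol for the last 24 hours, and the vehicle group held 11 libraries of cells given 2% ethanol. Whether ethanol was also present with calcitriol is not stated in the labels, which give no mouse, sex, diet or culture for a single library. Nothing in them says that the libraries of a group came from separate cultures or animals, so p-values measure the spread between these libraries, part of which may be technical.

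A T cell acts on its antigen signal only in combination with signals from such receptors. CD28 and ICOS, which bind CD80 and CD86 and ICOS ligand on antigen-presenting cells, raise activation through phosphoinositide 3-kinase. CTLA-4 takes the same ligands as CD28 with higher affinity and restrains it, while PD-1, BTLA, LAG-3, TIGIT, TIM-3 (encoded by Havcr2) and CD160 deliver or shape inhibitory signals through ligands of their own. CD200 differs from the others in that it is mainly a ligand, read by the inhibitory receptor CD200R1.

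The libraries held 3214171 to 20258430 counts (median 7504710). Marker genes were read beside the label TH2. The summed level of 8 T cell genes, which do not tell helper types apart, was 2353 to 2910 CPM (counts relative to library size, scaled by the TMM method) in calcitriol libraries and 2366 to 2876 CPM in vehicle libraries. Gata3, the TH2 master regulator, averaged 97.2 ± 15.1 CPM in calcitriol libraries and 86.5 ± 9.56 CPM in vehicle libraries (SD, n = 11 each). How pure the TH2 cultures were was not tested. The type 2 cytokine genes were present, Il4 at 96.7 ± 17.8 CPM in calcitriol libraries and 86.8 ± 8.00 CPM in vehicle libraries, and Il5 at 62.5 ± 21.1 CPM in calcitriol libraries and 44.6 ± 22.4 CPM in vehicle libraries. Gata3, Il4 and Il5 did not pass the test described below for the receptors. Il13 fell, at 203 ± 106 CPM in calcitriol libraries and 333 ± 104 CPM in vehicle libraries (log2 -0.72 ± 0.23, adjusted p = 0.0204), a call lost with resembling libraries summed (adjusted p up to 0.683). Il4ra, encoding the IL-4 receptor chain, rose, at 1884 ± 237 CPM in calcitriol libraries and 1276 ± 140 CPM in vehicle libraries (log2 0.56 ± 0.07, adjusted p = 2.02e-07). Replicate numbers follow the order of the samples and pair no libraries across groups. Replicates 1 and 2 of each group stood apart from the other 18 libraries on the second principal component of the 500 most variable genes. Their scores ran from 16.81 to 16.84 in the calcitriol group and from 12.4 to 14.3 in the vehicle group, against at most 2.82 in the other 9 calcitriol libraries and at most 6.56 in the other 9 vehicle libraries. Libraries also resembled one another in sets, 7 sets per group when mutual best partners were joined and 4 when joined more broadly. Receptor results that changed without those 4 libraries, or with each set summed to 1 sample, are given with their values. For other named genes a lost call is stated, in some cases only as a count of alternative settings.

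Promoter windows are shown for Ctla4 and Tigit, which rose, and for Cd200 and Btla, which fell and are neighbours on chromosome 16. Each window holds 250 bases before the annotated start and 50 after it, taken from RefSeq on GRCm38.p6 and printed 5′ to 3′ along the gene's strand. Capitals mark matches, on either strand, to the vitamin D receptor half-site (the hexamer AGGTCA with its variants AGTTCA as well as GGGTCA and also GGTTCA), the NFAT core GGAAA and the AP-1 site TGANTCA. The Ctla4 window is chr1:60908775-60909074 on the plus strand, the Tigit window chr16:43664135-43664434 on the minus strand, the Cd200 window chr16:45409004-45409303 on the minus strand and the Btla window chr16:45224087-45224386 on the plus strand.
Ctla4: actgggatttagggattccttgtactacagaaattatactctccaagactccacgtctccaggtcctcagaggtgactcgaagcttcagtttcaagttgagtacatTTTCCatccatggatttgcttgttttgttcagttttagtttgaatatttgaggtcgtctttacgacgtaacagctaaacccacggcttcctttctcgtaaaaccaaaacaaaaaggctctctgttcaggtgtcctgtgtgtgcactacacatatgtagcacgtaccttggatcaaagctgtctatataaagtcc
Tigit: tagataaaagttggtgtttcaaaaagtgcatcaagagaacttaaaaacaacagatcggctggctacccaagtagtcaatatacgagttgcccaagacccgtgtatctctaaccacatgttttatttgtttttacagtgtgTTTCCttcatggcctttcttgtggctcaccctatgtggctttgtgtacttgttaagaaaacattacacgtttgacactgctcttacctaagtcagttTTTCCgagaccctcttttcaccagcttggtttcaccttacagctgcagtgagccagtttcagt
Cd200: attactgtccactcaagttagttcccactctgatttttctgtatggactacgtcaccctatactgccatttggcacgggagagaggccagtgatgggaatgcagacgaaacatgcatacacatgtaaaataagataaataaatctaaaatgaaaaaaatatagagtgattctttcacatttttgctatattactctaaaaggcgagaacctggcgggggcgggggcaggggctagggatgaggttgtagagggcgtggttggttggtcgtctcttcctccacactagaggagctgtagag
Btla: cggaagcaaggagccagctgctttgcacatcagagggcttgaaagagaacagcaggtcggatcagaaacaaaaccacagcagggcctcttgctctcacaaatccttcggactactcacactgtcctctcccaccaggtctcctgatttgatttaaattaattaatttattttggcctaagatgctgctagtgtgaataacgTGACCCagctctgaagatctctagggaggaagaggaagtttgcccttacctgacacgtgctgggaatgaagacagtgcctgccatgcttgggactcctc
The RefSeq start used for Ctla4 lies inside the extent that GENCODE gives this gene. The Ctla4 window held 1 NFAT core, at -144 to -140 from the start base, and the Tigit window held 2, at -110 to -106 and at -13 to -9. The Btla window held 1 half-site, read on the opposite strand, at -49 to -44. None of these letter strings was found in the Cd200 window. Among windows not printed, that of Pdcd1, which fell, held 2 NFAT cores, at -28 to -24 and at -23 to -19. It also held 1 half-site at -41 to -36. The Havcr2 window held a half-site at -84 to -79 and an AP-1 site at -200 to -194, and a Cd160 window held a half-site and an NFAT core. NFAT cores were thus present in windows of genes that rose and of a gene that fell. RefSeq windows were at hand for 7 of the 10 genes, and those of Lag3, Icos and Cd28 were not. A half-site was present in 43.7% of 32851 mouse promoter windows of the same length, an NFAT core in 61.3% and an AP-1 site in 7.81%. Single matches to the half-site and the NFAT core are thus common, and those to the AP-1 site less so. The DR3 vitamin D response element, a direct repeat of half-sites spaced by 3 bases, was present in 13 windows, 0.0396% of the total, and in none of those of the 7 genes. A match describes letters only, and an absent match says only that the letters are not in this window.

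Calcitriol changed 7 of the 10 genes, in both directions. Ctla4, Icos, Cd28 and Tigit rose, Pdcd1, Btla and Cd200 fell, and Lag3 did not pass the test. Havcr2 and Cd160 had too few counts for the test over all genes. Calls rest on edgeR's quasi-likelihood test over 11905 genes at a Benjamini-Hochberg adjusted p under 0.05. Over all genes tested, 31.5% were called, 16.1% higher and 15.5% lower with calcitriol, and the median log2 change was -0.01. The levels of 2 of the receptors, Ctla4 and Cd200, did not overlap between the groups, as was the case for 4.36% of all genes tested. Levels stood apart upward, as for Ctla4, in 2.77% of genes and downward, as for Cd200, in 1.59%. In bulk RNA, fewer cells of a type and less RNA per cell cannot be told apart. The changes of the 10 genes in single libraries are shown in the plot by library.

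**Figure D1:**
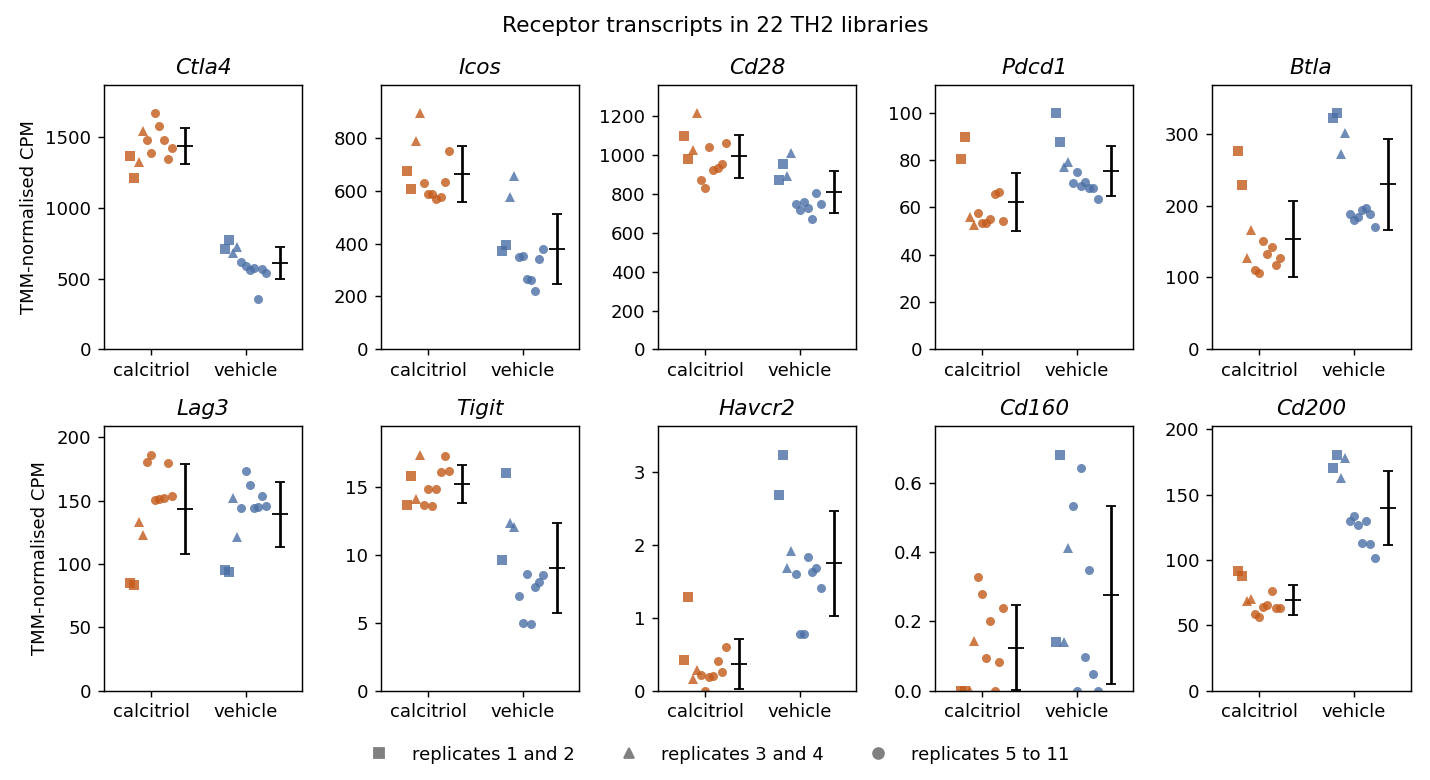
Levels of the 10 receptor genes (CPM, TMM-scaled, each panel from 0) in the 11 calcitriol and 11 vehicle libraries. Squares mark replicates 1 and 2, triangles replicates 3 and 4 and circles the other 7, and bars give the mean and SD. Ctla4 runs from 1212 to 1671 CPM in calcitriol libraries and from 358 to 773 CPM in vehicle libraries, and Cd200 from 56.4 to 91.5 CPM in calcitriol libraries and from 102 to 181 CPM in vehicle libraries.

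Ctla4 (ENSMUSG00000026011, chr1:60887000-60915832, plus strand, GRCm38) encodes the receptor that opposes CD28 costimulation. Its lowest, median and highest levels were 1212, 1423 and 1671 CPM in calcitriol libraries and 358, 587 and 773 CPM in vehicle libraries. All 11 calcitriol libraries lay above all 11 vehicle libraries. The vehicle group was itself divided, with 684 to 773 CPM in replicates 1 to 4 and 358 to 620 CPM in the other 7, the lowest being replicate 9. Mean levels were 1439 ± 129 CPM in calcitriol libraries and 609 ± 114 CPM in vehicle libraries (SD, n = 11 each). The log2 change was 1.24 ± 0.09 (SE), a fold of 2.36 (95% interval 2.08 to 2.69), with an adjusted p of 6.29e-11 in edgeR's quasi-likelihood test. The pseudogene Rpl18-ps1 lies inside Ctla4 on the same strand and held 648 counts in all, beside 192629 for Ctla4.

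Icos (ENSMUSG00000026009, chr1:60977927-61000320, plus strand), the costimulatory receptor that binds ICOS ligand and is induced on activation, had a lowest, median and highest level of 568, 628 and 892 CPM in calcitriol libraries and 220, 354 and 656 CPM in vehicle libraries. The overlap came from vehicle replicates 3 and 4, at 578 and 656 CPM. The other 9 vehicle libraries reached at most 394 CPM, under every calcitriol library. Calcitriol replicates 3 and 4 were in turn the highest of their group, at 787 and 892 CPM. The means were 663 ± 104 CPM in calcitriol libraries and 379 ± 131 CPM in vehicle libraries, a log2 change of 0.81 ± 0.15 with an adjusted p of 0.000260 (edgeR). Across 35 alternative settings the change of Icos was at least 0.74 on the log2 scale and the adjusted p reached at most 0.0184.

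Cd28 (ENSMUSG00000026012, chr1:60716800-60773359, plus strand), the constitutive costimulatory receptor, had a lowest, median and highest level of 831, 982 and 1216 CPM in calcitriol libraries and 671, 758 and 1010 CPM in vehicle libraries. The groups overlapped, with 5 of 11 calcitriol libraries above every vehicle library. In the calcitriol group the levels were 982 to 1216 CPM in replicates 1 to 4 and 831 to 1062 CPM in the other 7. In the vehicle group they were 870 to 1010 CPM in replicates 1 to 4 and 671 to 806 CPM in the other 7. The numbers pair no libraries across groups. The Cd28 change was 0.30 ± 0.07 on the log2 scale, a fold of 1.23 (95% interval 1.11 to 1.35), with an adjusted p of 0.00145 (edgeR). With libraries summed in 4 broad sets per group the change of Cd28 was 0.30 with an adjusted p of 0.0793, over a range of 2.59e-05 to 0.0793 across the 35 alternatives.

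Ctla4 and Icos lie 62095 bp apart on chromosome 1, which also carries Cd28 at a lower coordinate. Because the 3 genes moved by different amounts, their ratios of counts were compared within each library, which needs no scaling between libraries. The Ctla4 to Cd28 count ratio averaged 1.45 (range 1.23 to 1.71) in calcitriol libraries and 0.744 (0.533 to 0.828) in vehicle libraries. Cd28 thus gave more counts than Ctla4 in every vehicle library and fewer in every calcitriol library. These counts are not scaled by length, and Cd28 has 6122 bp of exon beside 2330 bp for Ctla4. Per kilobase of exon the mean of Ctla4 was above that of Cd28 in vehicle libraries too (261 and 132 CPM). The difference of the mean log2 ratio was 0.96 with a two-sided permutation p of 1e-05, the smallest that 100000 permutations can give, and an adjusted p of 3e-05 over 3 ratios. Icos over Cd28 averaged 0.663 (0.562 to 0.768) in calcitriol libraries and 0.449 (0.328 to 0.650) in vehicle libraries, a log2 difference of 0.56 with an adjusted permutation p of 9e-05. Ctla4 over Icos averaged 2.19 (1.69 to 2.85) in calcitriol libraries and 1.66 (1.11 to 2.19) in vehicle libraries, a log2 difference of 0.40 with an adjusted permutation p of 0.00387. That last call was lost when libraries were summed in 4 sets per group, where the difference was 0.28 with an adjusted p of 0.0857.

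**Figure D2:**
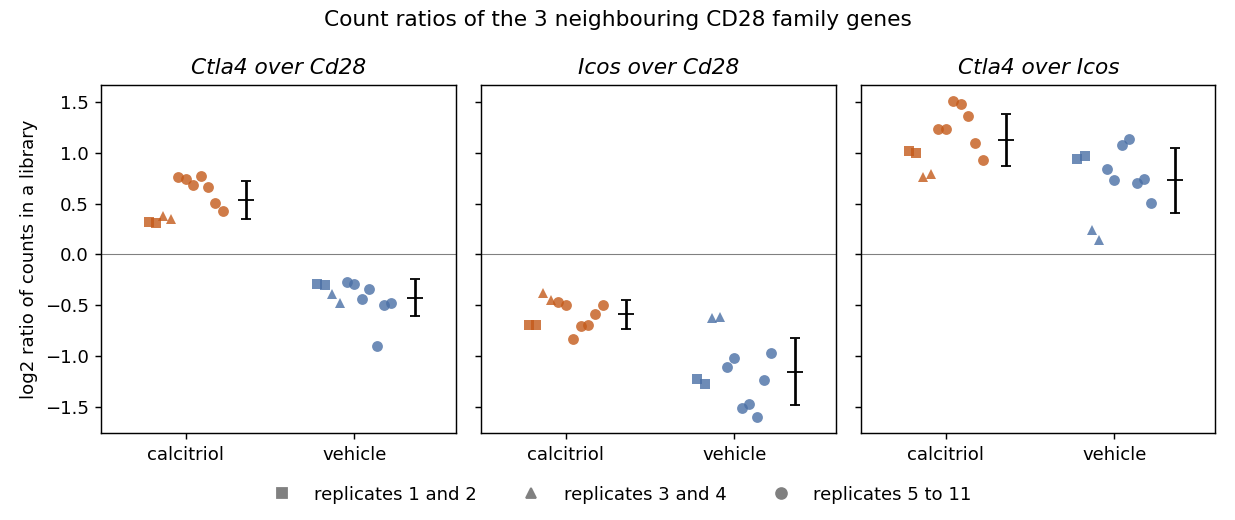
Log2 ratio of counts within each library for Ctla4 over Cd28, Icos over Cd28 and Ctla4 over Icos, with mean and SD bars per group (11 calcitriol, 11 vehicle). The Ctla4 over Cd28 ratio is above 0 in every calcitriol library and under 0 in every vehicle library, with group means of 0.54 for calcitriol and -0.43 for vehicle. Counts are not scaled by gene length.

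The shared ligands of CD28 and CTLA-4 and the ICOS ligand had low levels in these cells. Related genes were named by a rule, up to 4 called genes with the smallest p from each list. Cd80, Cd86, Pvr, Nectin2, Cd200r1 and Tnfrsf14, which partner the receptors directly, and Ptpn6, Ptpn11 and Pik3r1, which bind receptor tails or their complexes, were added after their values had been seen. Cd86 averaged 2.19 ± 0.756 CPM in calcitriol libraries and 1.18 ± 0.638 CPM in vehicle libraries, a log2 change of 0.90 ± 0.27 with an adjusted p of 0.0120. The Cd86 call was lost in 3 of 35 alternatives, being 0.68 with an adjusted p of 0.0605 without the 4 libraries that stood apart, with a range of 0.00377 to 0.0822 over the alternatives. Cd80 averaged 5.03 ± 1.37 CPM in calcitriol libraries and 5.49 ± 1.04 CPM in vehicle libraries and did not pass the test (adjusted p = 0.654, edgeR). Icosl had 108 counts in calcitriol libraries and 114 in vehicle libraries and did not pass the filter on low counts.

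Pdcd1 (ENSMUSG00000026285, chr1:94038305-94052553, minus strand) encodes PD-1, which recruits phosphatases to the synapse. It had a lowest, median and highest level of 52.6, 55.8 and 89.5 CPM in calcitriol libraries and 63.6, 70.7 and 99.8 CPM in vehicle libraries, so the groups overlapped. Of the 4 calcitriol libraries that did not lie below all vehicle libraries, 2 were replicates 1 and 2, at 80.4 and 89.5 CPM. The log2 change was -0.28 ± 0.09, a fold of 0.822 (95% interval 0.722 to 0.935), with an adjusted p of 0.0179 (edgeR). The call was lost when resembling libraries were summed in 7 sets per group (-0.26, adjusted p = 0.155) and in 4 sets (-0.17, adjusted p = 0.584). Its range over the 35 alternatives was 0.000215 to 0.584.

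Both ligands of PD-1 fell as well. Pdcd1lg2, encoding PD-L2, averaged 26.0 ± 3.42 CPM in calcitriol libraries and 47.1 ± 6.71 CPM in vehicle libraries, with no overlap, a log2 change of -0.86 ± 0.08 and an adjusted p of 3.16e-09. Cd274, encoding PD-L1, averaged 34.4 ± 5.49 CPM in calcitriol libraries and 48.6 ± 4.69 CPM in vehicle libraries, a log2 change of -0.50 ± 0.08 with an adjusted p of 1.14e-05. Both kept their call in all 35 alternatives.

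Btla (ENSMUSG00000052013, chr16:45224315-45257670, plus strand) encodes an inhibitory receptor of the immunoglobulin family that binds HVEM, the product of Tnfrsf14. Its lowest, median and highest levels were 106, 133 and 275 CPM in calcitriol libraries and 170, 193 and 328 CPM in vehicle libraries. Calcitriol replicates 1 and 2 were set apart, at 229 to 275 CPM. In the vehicle group replicates 1 to 4, at 271 to 328 CPM, lay above the other 7, at 170 to 196 CPM, and replicates 1 and 2 were the highest, at 322 to 328 CPM. The other 9 calcitriol libraries, at 106 to 165 CPM, all lay below every vehicle library. The log2 change was -0.59 ± 0.17, a fold of 0.666 (95% interval 0.520 to 0.853), with an adjusted p of 0.0119 (edgeR). Without the 4 libraries that stood apart the Btla call held, and with resembling libraries summed it was -0.52 with an adjusted p of 0.132 in 7 sets and -0.36 with an adjusted p of 0.562 in 4 sets. Adjusted p-values ran from 1.82e-06 to 0.562 over the 35 alternatives.

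Tnfrsf14 averaged 20.7 ± 2.84 CPM in calcitriol libraries and 17.4 ± 2.98 CPM in vehicle libraries, a log2 change of 0.26 ± 0.10 with an adjusted p of 0.0425. Its call was lost in 18 of 35 alternatives (adjusted p from 0.00745 to 0.616). Among these were the fits without calcitriol replicate 2, 3, 5, 6, 7, 8, 10 or 11 and without vehicle replicate 1, 3, 4, 6, 7, 10 or 11, and the log2 change of Tnfrsf14 over the fits without 1 library was 0.20 to 0.30. CD160 binds HVEM too. Cd160 (ENSMUSG00000038304, chr3:96798763-96829351, minus strand) was close to the floor of detection, with 12 counts over the calcitriol libraries and 21 over the vehicle libraries, in 7 and 9 of 11 libraries. Its ratio of calcitriol over vehicle, relative to TMM-scaled totals, was 0.594 with a 95% interval of 0.266 to 1.26. The interval covers counting error only, because counts were summed over the libraries of a group, and it leaves out the spread between libraries. PCR copies were not marked by molecular identifiers, so it may be too narrow even for counting error. A change of Cd160 was not detectable at this depth.

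Tigit (ENSMUSG00000071552, chr16:43648867-43664146, minus strand) encodes an inhibitory receptor for the poliovirus receptor PVR and nectin-2. It had a lowest, median and highest level of 13.6, 14.9 and 17.4 CPM in calcitriol libraries and 4.92, 8.54 and 16.0 CPM in vehicle libraries. The calcitriol libraries were close together, while vehicle replicates 1 to 4, at 9.60 to 16.0 CPM, were above the other 7, at 4.92 to 8.63 CPM. The overlap came from vehicle replicate 2 alone. The log2 change was 0.76 ± 0.14, a fold of 1.69 (95% interval 1.38 to 2.08), with an adjusted p of 0.000149 (edgeR). The change was 1.09 without the first 4 libraries of each group, and in 4 summed sets per group it was 0.63 with an adjusted p of 0.167, over a range of 5.27e-07 to 0.167.

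Of the ligands of TIGIT, Pvr averaged 38.4 ± 5.72 CPM in calcitriol libraries and 30.4 ± 4.73 CPM in vehicle libraries, a log2 change of 0.32 ± 0.09 with an adjusted p of 0.00800. Without the first 4 libraries of each group the Pvr change was 0.25 with an adjusted p of 0.12, over a range of 0.000860 to 0.12. Nectin2 averaged 3.93 ± 1.43 CPM in calcitriol libraries and 5.61 ± 1.95 CPM in vehicle libraries, a log2 change of -0.58 ± 0.21 with an adjusted p of 0.0382. Its call was lost in 13 alternatives, among them those without calcitriol replicate 5, 6, 7, 9 or 10 and without vehicle replicate 1, 5, 7, 10 or 11, and the log2 change of Nectin2 ran from -0.97 to -0.28 over the alternatives (adjusted p from 0.00210 to 0.553).

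Cd200 (ENSMUSG00000022661, chr16:45382135-45409053, minus strand) had a lowest, median and highest level of 56.4, 65.2 and 91.5 CPM in calcitriol libraries and 102, 130 and 181 CPM in vehicle libraries. The groups did not overlap, and all 11 calcitriol libraries lay below all 11 vehicle libraries. Replicates 1 and 2, which are not paired across groups, stood at 87.6 to 91.5 CPM in the calcitriol group and at 171 to 181 CPM in the vehicle group. The log2 change was -1.01 ± 0.10, a fold of 0.496 (95% interval 0.427 to 0.575), with an adjusted p of 3.09e-08 (edgeR). It ran from -1.08 to -0.91 over the 35 alternatives and kept its call in each. Cd200r1, encoding the receptor for CD200, averaged 42.1 ± 7.75 CPM in calcitriol libraries and 26.5 ± 7.42 CPM in vehicle libraries, a log2 change of 0.67 ± 0.13 with an adjusted p of 0.000330. In these bulk libraries the ligand gene fell and the gene of its receptor rose.

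Lag3 (ENSMUSG00000030124, chr6:124904361-124911705, minus strand) encodes an inhibitory receptor for MHC class II and is related to CD4. Its lowest, median and highest levels were 83.1, 151 and 186 CPM in calcitriol libraries and 93.3, 145 and 173 CPM in vehicle libraries. The groups overlapped over nearly their whole ranges, and the lowest libraries were replicates 1 and 2 of each group, at 83.1 to 85.1 CPM with calcitriol and 93.3 to 95.5 CPM with vehicle. The log2 change was 0.05 ± 0.13 with a 95% interval of -0.23 to 0.33 and an adjusted p of 0.822 (edgeR). As a fold, the interval was 0.853 to 1.26, so a change within it cannot be told from none. The Lag3 estimate turned to -0.02 under total-count scaling and under summing in 7 sets, and to -0.18 under summing in 4 sets.

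Havcr2 (ENSMUSG00000020399, chr11:46454935-46481255, plus strand), encoding TIM-3, did not pass the filter on low counts, with 29 counts over the calcitriol libraries and 165 over the vehicle libraries. Levels were 0 to 1.29 CPM with a median of 0.250 in calcitriol libraries and 0.773 to 3.24 CPM with a median of 1.68 in vehicle libraries. In 10 of 11 calcitriol libraries the level was below that of every vehicle library, the exception being replicate 2, where 4 counts gave 1.29 CPM. The ratio of calcitriol over vehicle, relative to TMM-scaled totals, was 0.183 with a 95% interval of 0.119 to 0.272 for counting error only. In a fit with no filter on low counts, the log2 change of Havcr2 was -2.39 ± 0.33 with an adjusted p of 7.90e-08 (edgeR), from at most 5 counts in a calcitriol library and at most 35 in a vehicle library. Lgals9, encoding galectin-9, which can bind TIM-3, averaged 64.7 ± 5.48 CPM in calcitriol libraries and 80.4 ± 8.29 CPM in vehicle libraries, a log2 change of -0.31 ± 0.06 with an adjusted p of 0.000137.

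**Figure D3:**
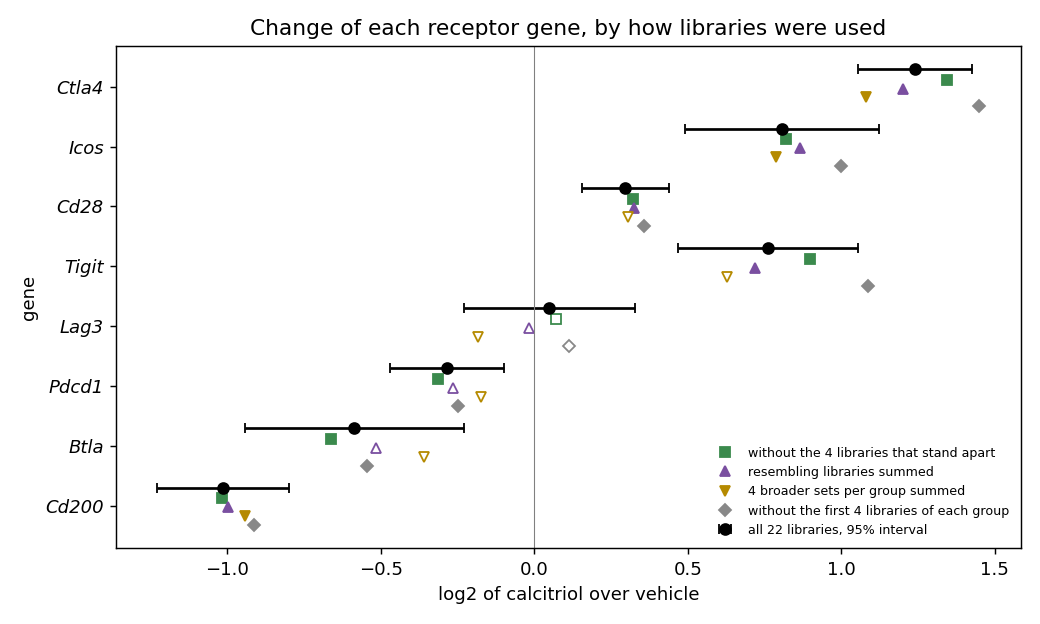
Log2 change of calcitriol over vehicle for the 8 tested receptors. Black circles with 95% intervals use all 22 libraries, and other symbols leave out or sum libraries as keyed, filled where the adjusted p was under 0.05. Ctla4, Icos and Cd200 are filled throughout, Pdcd1 and Btla are open with resembling libraries summed and Lag3 is open throughout.

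Levels of different genes were compared per length, as CPM per kilobase of exon. Ctla4 was highest in both groups, at 618 ± 55.6 in calcitriol libraries and 261 ± 49.0 in vehicle libraries (SD, n = 11 each). Icos stood at 193 ± 30.4 in calcitriol libraries and 110 ± 38.2 in vehicle libraries, and Cd28 at 162 ± 17.9 in calcitriol libraries and 132 ± 17.6 in vehicle libraries. These 2 overlapped within each group, and their order turned in calcitriol libraries when the longest transcript was used for length. In calcitriol libraries Ctla4 was separate from Icos, and Cd28 from Lag3, while in vehicle libraries the range of Ctla4 touched that of Cd28. Lag3, Btla, Pdcd1 and Cd200 came next, with overlapping neighbours, and in vehicle libraries the range of Btla also overlapped that of Icos. They stood at 20.9 to 68.0 on average in calcitriol libraries and 39.1 to 67.5 in vehicle libraries. Tigit, whose range touched that of Cd200 in calcitriol libraries and lay below that of Pdcd1 in vehicle libraries, stood at 16.6 ± 1.53 in calcitriol libraries and 9.87 ± 3.62 in vehicle libraries, and Havcr2 and Cd160 had mean levels under 1 in both groups, at most 0.643. Levels on this scale rank genes within a library and do not measure protein.

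**Figure D4:**
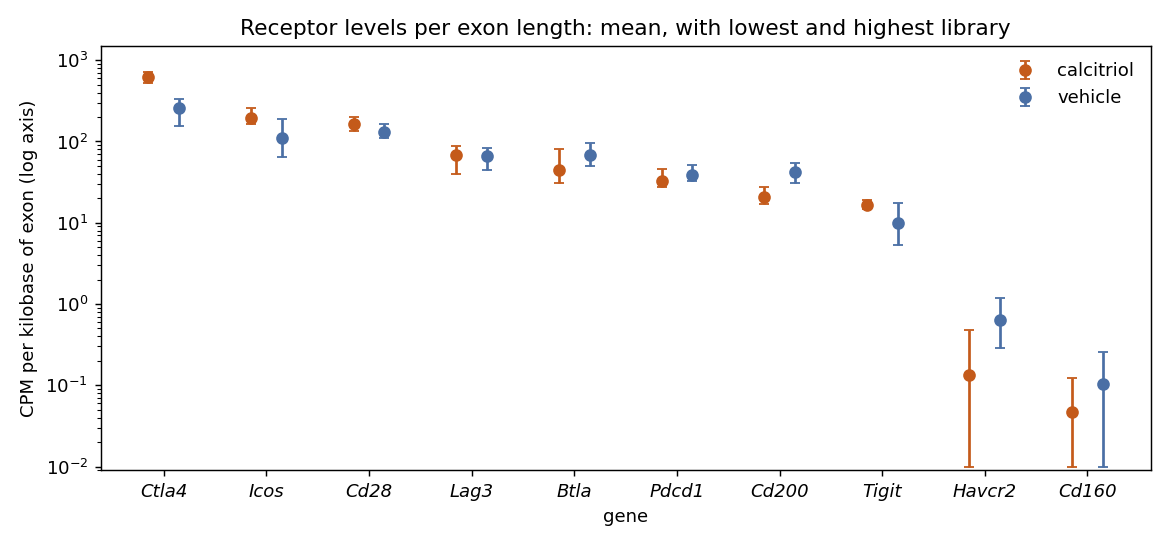
Mean level of each receptor gene per kilobase of exon (CPM per kb, log axis) in calcitriol and vehicle libraries, with bars from the lowest to the highest of 11 libraries. A lowest library with no count is drawn at the bottom of the axis. Ctla4 is highest in both groups, at 618 in calcitriol libraries and 261 in vehicle libraries, and Havcr2 and Cd160 stand far below the other 8.

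Several receptors varied together between libraries of the same group, whichever way they had moved with calcitriol. Correlations were taken over all 22 libraries on deviations of log2 CPM from the group mean, and they have no test, since libraries resembled one another in sets. Btla and Cd200 had the highest Pearson r, 0.910 (0.838 without the 4 libraries that stood apart), and they are neighbours, 124465 bp apart. Icos and Cd28 had an r of 0.774 (0.823 without the 4) and Ctla4 and Cd28 an r of 0.614 (0.591). Pdcd1 and Cd200 had an r of 0.796 (0.613), and Pdcd1 and Btla 0.791 (0.331), so the last value was much smaller without those 4 libraries. Pairs of a receptor that rose and one that fell also varied together, with an r of 0.707 for Cd28 and Btla (0.825 without the 4) and 0.660 for Cd28 and Cd200 (0.623). Lag3 went against Btla with an r of -0.908 (-0.692 without the 4).

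Among all tested genes with at least 2 CPM on average, those most like each called receptor over the 22 libraries were named by the highest r. For Ctla4 these were Nemf, Vps41 and Usp38, with r of 0.861, 0.848 and 0.832. For Icos they were Gbp3, Samhd1 and Cxcr6, with r of 0.925, 0.918 and 0.905. For Cd28 they were Cd47, Ptpn2 and Ranbp9, with r of 0.953, 0.937 and 0.924. The likeness of these 9 genes held without the 4 libraries that stood apart, with r of 0.782 to 0.948. Btla was followed most closely by Plek, Timp1 and Il24, with r of 0.971, 0.948 and 0.946. Cd200 was followed by Slc17a6, Morf4l2 and Sms, with r of 0.931, 0.927 and 0.921, and Tigit by Gm33056, Tab2 and Abca1, with r of 0.853, 0.796 and 0.793. For Pdcd1 the genes were Il13, Bcat1 and Ccn4, with r of 0.912, 0.881 and 0.876, and these dropped to 0.677, 0.613 and 0.308 without the 4 libraries.

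Genes beside the receptors did not share 1 direction. Inside Icos on the same strand, Gm37039, a GENCODE model that awaits experimental evidence, rose by 0.66 ± 0.15 on the log2 scale (adjusted p = 0.00112), with 1982 counts beside 95914 for Icos, and reads of these genes cannot be told apart with certainty. The Gm37039 call was lost with libraries summed in 4 sets per group (adjusted p = 0.0517, edgeR). Near Cd28, the long non-coding gene 2310016D23Rik, 5484 bp away, had a log2 change of 0.59 ± 0.21 (adjusted p = 0.0326), a call lost in 10 alternatives, among them those without calcitriol replicate 5, 7 or 9 and without vehicle replicate 4 or 11 (adjusted p from 0.0182 to 0.366). Eif4a-ps4 on the other side of Cd28 and Rpl18-ps1 in Ctla4 did not pass the test, with log2 changes of -0.27 ± 0.18 and 0.14 ± 0.22. Beside Lag3, Ptms fell by 0.56 on the log2 scale (adjusted p = 0.00497) and Cd4 fell by 0.13 (adjusted p = 0.0153), calls lost in 1 and 4 of the 35 alternatives, those with resembling libraries summed in 4 sets among them. The Cd4 call was also lost without the 4 libraries that stood apart. Atg3 beside Btla, D2hgdh near Pdcd1 and Zbtb20 beside Tigit did not pass, with log2 changes of -0.02, 0.09 and 0.04, while Qtrt2, 197261 bp from Tigit, fell by 0.53 (adjusted p = 0.0141), a call lost in 2 alternatives.

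Among related genes, the share called was 75.0% of the 12 tested ligands and counter-receptors, beside 31.5% of all genes tested. Of these 12, 4 were higher and 5 lower, with a median log2 change of -0.19 beside -0.01 for all genes tested. Besides the PD-1 ligands, Lgals3, encoding galectin-3, averaged 30.5 ± 10.4 CPM in calcitriol libraries and 77.1 ± 20.5 CPM in vehicle libraries with no overlap, a log2 change of -1.36 ± 0.17 and an adjusted p of 1.60e-06. The other costimulatory receptors had 5 higher and 6 lower of 15 tested, a share of 73.3%, with a median of -0.11. Slamf1 fell, at 107 ± 26.3 CPM in calcitriol libraries and 223 ± 20.7 CPM in vehicle libraries (log2 -1.06 ± 0.10, adjusted p = 1.66e-08), and so did Cd9, encoding a tetraspanin, by 1.38 on the log2 scale. Tnfrsf8, encoding CD30, and Itgal, encoding the LFA-1 alpha chain, rose by 0.58 and 0.69 on the log2 scale, and none of these 4 genes overlapped between the groups. Of the 7 other inhibitory receptors tested, 2 rose and 1 fell, a share of 42.9%. Lair1, encoding a collagen receptor, rose by 0.62 ± 0.12 and Cd5, a damper of antigen receptor signalling, fell by 0.31, while Vsir, encoding VISTA, rose by 0.55 ± 0.13, a call lost without the first 4 libraries of each group (0.32, adjusted p = 0.143, in a range of 9.78e-05 to 0.143).

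Of 39 tested genes of receptor-proximal signalling, 9 rose and 6 fell, a share of 38.5% with a median of 0.04. Pik3ca, encoding a catalytic subunit of phosphoinositide 3-kinase, averaged 239 ± 25.8 CPM in calcitriol libraries and 160 ± 10.9 CPM in vehicle libraries, a log2 change of 0.58 ± 0.06 with an adjusted p of 4.64e-09. Its regulatory partner Pik3r1 fell by 0.35 (adjusted p = 6.38e-05). Ubash3a and Pag1, both brakes on antigen receptor signalling, rose by 0.49 and 0.55. Ptpn6, encoding the phosphatase SHP-1, fell by 0.27 (adjusted p = 2.67e-06), and Ptpn11, encoding SHP-2, had a log2 change of -0.08 ± 0.05 that did not pass the test (adjusted p = 0.264). All of these calls held over the 35 alternatives.

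**Figure D5:**
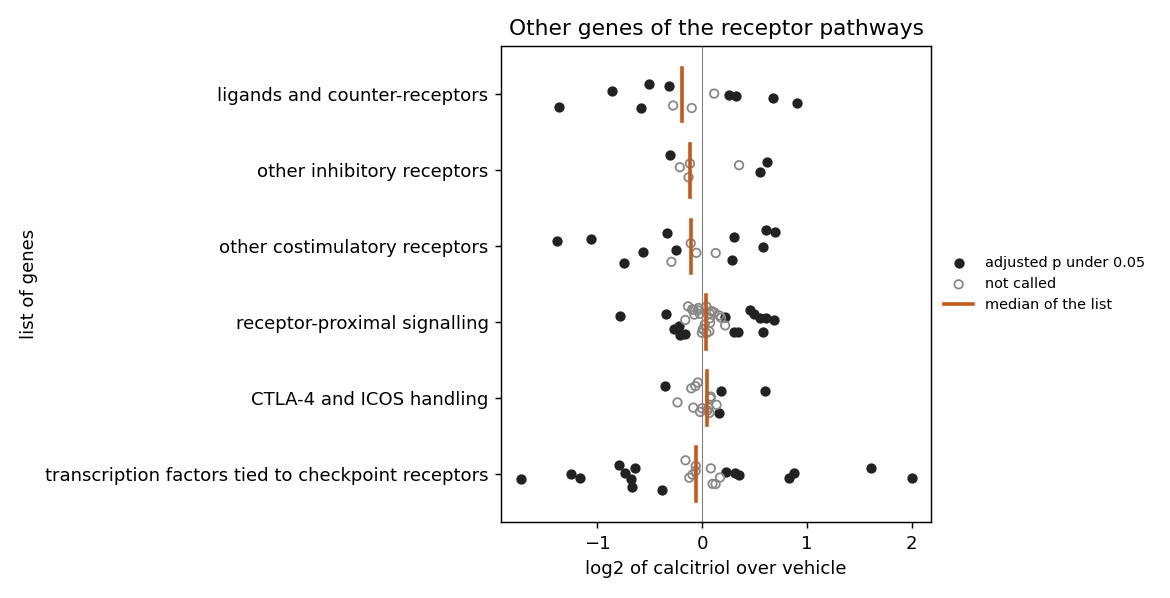
Log2 change of calcitriol over vehicle for the tested genes of 6 lists of related genes, filled where the adjusted p was under 0.05, with the median of each list as a bar. Genes lie on both sides of 0 in every list, and the medians run from -0.19 for ligands and counter-receptors to 0.05 for the genes that handle CTLA-4 and ICOS.

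Of 17 tested genes that handle CTLA-4 and ICOS messages or protein, 3 rose and 1 fell, with a median of 0.05. The share called was 23.5%, below the 31.5% of all genes tested. Zfp36, an mRNA decay factor, rose by 0.60 ± 0.08 (adjusted p = 2.16e-06), and Adam10 and Adam17, sheddases of surface receptors, rose by 0.17 and 0.16. Zc3h12a, encoding Regnase-1, which destabilises the Icos message, fell by 0.35 (adjusted p = 0.0105). The calls of Adam10, Zc3h12a and Adam17 were lost in 3, 2 and 10 of 35 alternatives, those of Adam17 including the fits without calcitriol replicate 7, 9 or 11 and without vehicle replicate 1 or 3. Of 25 tested transcription factors tied to these receptors, 7 rose and 9 fell, a share of 64%, with a median of -0.06. The 4 with the smallest p were Maf, which rose by 0.88 ± 0.07, Tbx21, encoding T-bet, which fell by 1.26 ± 0.11, Prdm1, encoding Blimp-1, which rose by 1.61 ± 0.14, and Ikzf3, encoding Aiolos, which rose by 2.00 ± 0.21. None of the 4 overlapped between groups, and the call of Ikzf3 was lost with 4 summed sets per group (1.69, adjusted p = 0.0613).

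Markers of other cells were read beside the receptors. The summed level of the regulatory T cell list, a lineage that carries much Ctla4, Icos and Tigit, was 1133 to 1286 CPM in calcitriol libraries and 827 to 977 CPM in vehicle libraries, without overlap. Il2ra, which activated T cells also express, made up nearly all of it and rose by 0.45 (adjusted p = 5.28e-10). Ikzf2 and Nrp1 fell by 0.79 and 0.59, calls lost in 1 and 6 of 35 alternatives (for Nrp1 also without calcitriol replicate 11 or vehicle replicate 1 or 2, with adjusted p from 0.000388 to 0.559). Gpr83 (log2 0.30 ± 0.17, adjusted p = 0.202) and Lrrc32 (log2 -0.32 ± 0.19, adjusted p = 0.206) did not pass the edgeR test. Foxp3, the defining gene, had 44 counts over the calcitriol libraries and 28 over the vehicle libraries. The dendritic cell list summed to 54.4 to 123 CPM in calcitriol libraries and 98.1 to 151 CPM in vehicle libraries, mostly from Batf3, which T cells also express and which fell by 0.63 (adjusted p = 0.00102). Zbtb46, a dendritic cell factor of the same list, fell as well, at 2.59 ± 0.878 CPM in calcitriol libraries and 4.68 ± 0.866 CPM in vehicle libraries (log2 -0.90 ± 0.16, adjusted p = 5.56e-05). The Batf3 and Zbtb46 calls were lost in 2 and 1 of the 35 alternatives, those with libraries summed. Itgax averaged 3.34 ± 1.19 CPM in calcitriol libraries and 3.38 ± 1.37 CPM in vehicle libraries, Flt3 had 42 counts over the calcitriol libraries and 34 over the vehicle libraries, and Xcr1 and Siglech had at most 2 counts in a group. The sums of the B cell, NK cell, CD8 T cell and macrophage lists were at most 7.30, 4.19, 9.53 and 13.9 CPM in any library, and the follicular helper list summed to 662 to 953 CPM in calcitriol libraries and 677 to 1044 CPM in vehicle libraries. Il21 made up most of that sum and did not pass the test, while Bcl6, which defines follicular helper cells, a lineage that carries much Icos, Pdcd1, Btla and Cd200, rose, at 4.24 ± 2.37 CPM in calcitriol libraries and 2.57 ± 0.622 CPM in vehicle libraries (log2 0.83 ± 0.26, adjusted p = 0.0160). The Bcl6 call was lost with resembling libraries summed (0.23 and an adjusted p of 0.827 in 4 sets). Of the other genes of the follicular helper list, Sh2d1a did not pass the test (log2 0.22 ± 0.09, adjusted p = 0.0786, edgeR). Cxcr5 had 77 counts over the calcitriol libraries and 80 over the vehicle libraries, and Tox2 had 15 over the calcitriol libraries and 10 over the vehicle libraries. Of the 8 T cell genes, 3 rose and 1 fell, with log2 changes of Cd3d 0.35, Cd3g 0.30, Cd3e 0.20 and Cd4 -0.13. With all 22 libraries, Cd3d and Cd3g thus moved by as much as Cd28. The Cd3d call was lost with libraries summed in 4 sets per group (adjusted p = 0.0629, edgeR). That of Cd3g was lost in 7 and in 4 summed sets, with a log2 change down to 0.11 over the 35 alternatives (adjusted p up to 0.626). The call of Cd3e was lost in 14 alternatives, among them those without calcitriol replicate 5, 6, 8, 9, 10 or 11 and without vehicle replicate 1, 3, 6 or 7 (adjusted p from 0.00329 to 0.815). The part of these markers in the receptor changes was not tested.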

How the data were processed

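The series measured RNA in 22 libraries of TH2 cells, 11 with calcitriol and 11 with vehicle. Values deposited by the authors are whole-number counts for each Ensembl gene, without normalisation. The build GRCm38 and the tools HTSeq 0.13.5 and STAR 2.7.10a are named per the submitters' processing notes. What each tool did, the strandedness used in counting and the annotation are not given here, so reads of overlapping or antisense genes cannot be told apart with certainty. Per the labels' protocols, a stranded total RNA kit with globin removal was used. Symbols, coordinates and exon lengths came from GENCODE M21, and 259 identifiers had no symbol there.

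Counts were filtered with filterByExpr, which kept 11905 genes holding at least 99.7% of each library's counts, scaled by TMM (factors 0.939 to 1.06) and tested with edgeR 4.0.16 (R 4.3.3, robust quasi-likelihood F test, no covariate, two-sided). P-values were adjusted by Benjamini-Hochberg over all 11905 genes, with a threshold of 0.05. CPM values use TMM-scaled totals. No pair of libraries within a group, 110 pairs in all, differed by as little as sampling noise: chi-square per degree of freedom was 2.52 to 26.8 over genes with at least 10 counts in the pair, so none was merged. Count ratios used log2(count + 0.5) and 100000 permutations. The edgeR test was tried before use on simulated libraries drawn independently of one another, so sets of resembling libraries were not covered. DESeq2 1.42.0, limma 3.58.1 (voom), other scalings and filters, leaving out libraries and summing resembling libraries were alternatives, the last in 4 sets and the omission of the first 4 libraries being chosen after seeing the data.

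The receptors, the lists of related genes and the settings were chosen with earlier results of these data known. Genes were named by a rule: all 10 receptors; up to 4 called genes with the smallest p in each list; the nearest tested gene on either side of a tested receptor within 200 kb; and the 3 genes most like each called receptor. Of the genes this rule names, 1 is not reported here. Other genes named, marker genes such as Gata3, Il2ra and Batf3 included, were chosen after their values were seen.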

Additional observations from a re-analysis of the deposited data

How the results depend on the processing

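Over 35 alternatives, Ctla4, Icos and Cd200 kept their calls, and no member call was lost when 1 library was left out; the log2 change then ran from 1.18 to 1.28 for Ctla4, -1.06 to -0.97 for Cd200 and -0.71 to -0.52 for Btla, and 3467 to 3806 genes were called. Scaling by total counts alone gave 2878 lower genes, 31.4% of calls being higher against 50.9% with TMM, and -0.018 for Lag3. With resembling libraries summed, 2246 genes were called, 1245 higher and 1001 lower, with 1 receptor lower (Cd200), and Pdcd1 was -0.26, Btla -0.52 and Lag3 -0.017. With 4 broader sets per group summed, 1214 genes were called, 719 higher and 495 lower, with 2 receptors higher and 1 lower; Cd28 was 0.30, Pdcd1 -0.17, Btla -0.36, Lag3 -0.18 and Tigit 0.63, and the log2 difference of Ctla4 over Icos was 0.28. Both sums leave fewer samples. By longest transcript, the mean level over all libraries was 208 for Cd28 and 44.6 for Cd200. Among other named genes, Zbtb20 turned to -0.030 by total counts and -0.032 in 4 sets and ran from -0.0046 (without vehicle replicate 7) to 0.075 with 1 library left out, D2hgdh turned to -0.077 and Atg3 to 0.027 in 4 sets, and without the first 4 libraries of each group Atg3 was 0.015 and Cd80 0.0024; the cause was not tested. Of 47 other named genes called, 23 lost their call in some alternative. No paired analysis was possible because the labels give no replicate numbers and no batch, animal or culture that would pair libraries. Depth limits Havcr2 and Cd160, and the resemblance of libraries in sets limits what the p-values cover.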

Other observations

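Havcr2 belongs to a cluster of TIM genes on chromosome 11, a family of surface receptors of which some, but not all, bind phosphatidylserine. Its relatives were read after their values had been seen. Timd2, encoding TIM-2, 187705 bp from Havcr2, averaged 12.3 ± 4.25 CPM in calcitriol libraries and 54.9 ± 20.7 CPM in vehicle libraries (SD, n = 11 each). The groups did not overlap, and all 11 calcitriol libraries were below all 11 vehicle libraries. The log2 change of Timd2 was -2.14 ± 0.22 with an adjusted p of 1.11e-07 in edgeR's quasi-likelihood test, and the call held in all 35 alternatives. Havcr1, encoding TIM-1, had 12 counts over the calcitriol libraries and 42 over the vehicle libraries, too few to pass the filter on low counts, and Timd4, encoding TIM-4, had no count in either group. Med7, on the other side of Havcr2 at 12214 bp, did not pass the test, with a log2 change of -0.06 ± 0.08 (adjusted p = 0.619).

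The share of each receptor in the summed CPM of the 10 genes gives the make-up of the set in a library, by reads and not by length. Ctla4 held 40.7 ± 3.26% in calcitriol libraries and 25.4 ± 2.26% in vehicle libraries (SD, n = 11 each). Cd28 held 28.0 ± 1.58% in calcitriol libraries and 34.0 ± 1.74% in vehicle libraries. Btla held 4.32 ± 1.46% in calcitriol libraries and 9.49 ± 1.47% in vehicle libraries, and Cd200 1.97 ± 0.332% in calcitriol libraries and 5.85 ± 0.689% in vehicle libraries. These shares sum to a fixed total.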
